A study of Homo sapiens with 2 samples.

Results

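The aryl hydrocarbon receptor (AHR) pathway was described in C4-2B cells, a human prostate cancer line, through 9 genes of the 60671 in the deposited gene table: AHR, ARNT, AHRR, TIPARP, CYP1A1, CYP1A2, CYP1B1, NQO1 and ALDH3A1. The set was chosen by pathway after the counts of CYP1A1 and CYP1A2 had been seen to differ widely between the same libraries, so all member values below are descriptions and none carries a test. RNA sequencing was made from 1 vehicle library and 1 library of cells given (R)-9b, a small-molecule inhibitor of the kinase ACK1, at 1 µM overnight per the labels. The dose label stands on both samples, and the treatment label separates them. Neither condition has a second library, so no spread between cultures could be measured, and every interval below covers counting error only, with PCR copies not told apart.

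The AHR is a ligand-activated transcription factor of the bHLH-PAS family. Without ligand it is held in the cytoplasm with HSP90 and co-chaperones such as PTGES3. With ligand it enters the nucleus, pairs with ARNT and binds DNA at xenobiotic response elements, where it induces CYP1 family monooxygenases and its own feedback repressors AHRR and TIPARP. CYP1A1 is the target gene usually used to read the pathway, and CYP1A2 is best known as an enzyme of the liver.

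The libraries held 65207444 counts for vehicle and 57653965 for (R)-9b, and mitochondrially encoded genes took 1.49% and 9.54% of them. The labels call the line a breast cancer, whereas the paper treats it as prostate. All 6 prostate luminal markers were counted, at a summed 4163 scaled CPM in vehicle and 7929 in (R)-9b, with 146597 counts of KLK3 in vehicle and 297728 in (R)-9b, while the 5 breast markers summed to 1.16 and 1.47 CPM, ESR1 had 2 counts in each library and SCGB2A2 and LALBA had 0. Among hepatocyte markers ALB had 4 and 2 counts and APOA2 1 and 0, and among the 3 leukocyte markers CD68 had 4 and 12, CD3E 2 and 0, and PTPRC 0 in both libraries. The 3 stroma markers summed to 19.5 CPM in vehicle and 39.2 in (R)-9b, most of it COL1A1 (1114 and 2004 counts). PDGFRB had 181 and 205 counts, and COL1A2 1 and 3. The part of these genes in the member values was not tested. With mitochondrial genes left out of the scaling, the log2 ratio of CYP1A1 stayed at 4.88 and that of NQO1 at 0.82.

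The 5-base core of the xenobiotic response element, GCGTG, was searched on both strands of RefSeq promoter windows of GRCh38.p14, which run from 250 bases before to 50 bases after a transcription start. Windows were found for 7 of the 9 members, 10 windows in all. The core was in 6 of the 10 windows and in a window of 5 of the 7 members, beside 36.5% of the 35116 promoter windows of all genes. The 250 bases before the start are shown for CYP1A1 and CYP1A2, whose counts differed most, and for TIPARP, a known target whose counts were level. Capitals mark GCGTG or its reverse complement CACGC, and each sequence reads 5′ to 3′ on the strand of its gene.
CYP1A1, chr15:74725529-74725778, minus strand: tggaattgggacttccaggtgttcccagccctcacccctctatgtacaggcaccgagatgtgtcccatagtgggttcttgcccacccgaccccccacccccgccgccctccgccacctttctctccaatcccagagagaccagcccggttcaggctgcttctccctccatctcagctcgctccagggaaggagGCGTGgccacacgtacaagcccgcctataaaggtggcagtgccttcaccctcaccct
CYP1A2, chr15:74748595-74748844, plus strand: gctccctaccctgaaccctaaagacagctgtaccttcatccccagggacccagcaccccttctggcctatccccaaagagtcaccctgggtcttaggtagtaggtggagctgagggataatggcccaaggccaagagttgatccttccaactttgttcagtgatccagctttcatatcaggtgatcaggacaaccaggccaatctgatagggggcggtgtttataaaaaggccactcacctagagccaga
TIPARP, chr3:156674340-156674589, plus strand: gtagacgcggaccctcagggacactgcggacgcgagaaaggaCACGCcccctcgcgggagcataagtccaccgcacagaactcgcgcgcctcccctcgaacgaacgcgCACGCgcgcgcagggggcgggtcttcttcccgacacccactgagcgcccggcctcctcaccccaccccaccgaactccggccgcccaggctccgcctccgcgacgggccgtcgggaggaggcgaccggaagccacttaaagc
The CYP1A1 window held 1 core, starting at position -57 from the start, and the CYP1A2 window held none. TIPARP has 3 windows, of which the first, shown here, held 2 cores, at positions -208 and -142, and the others none. A match of these letters is a description and does not show a bound site, and more distant sequence was not searched. The longer form TNGCGTG, which contains the core, was in windows of AHRR at -32 and NQO1 at 2, and in 5.51% of all windows. The antioxidant response element core TGACNNNGC was in the ARNT window at -183 and in 13.3% of all windows.

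Of the 9 members, 8 had at least 10 counts over both libraries, the minimum used for calls, as did 23446 genes in all. A gene was called higher or lower when the whole exact 95% interval of its scaled ratio, (R)-9b over vehicle, lay beyond 2-fold. CYP1A1 and CYP1A2 were the 2 members called higher (4.2% of all tested genes), and 0 members were called lower (3.44% of all). By the weaker rule that the interval excludes a ratio of 1, 5 members were above it (29.8% of all) and 2 below it (31.1% of all), with TIPARP neither. The median log2 ratio of the 8 was 0.54, against -0.0049 for all tested genes. Since the choice of members used this contrast, nothing is read from these counts.

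**Figure D1:**
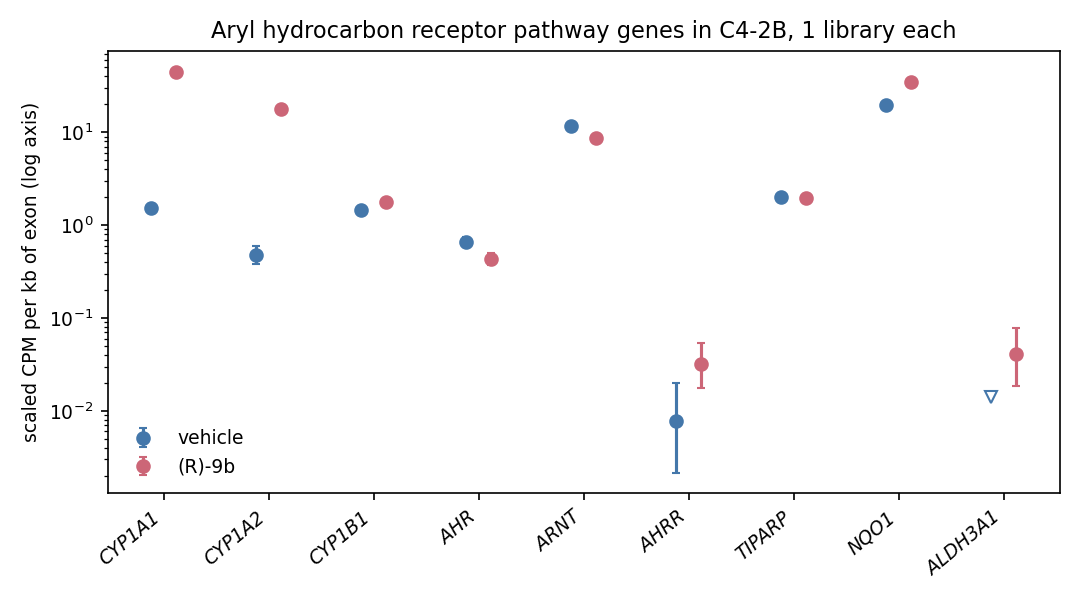
Level of each member in the vehicle and (R)-9b libraries, as scaled CPM per kb of exon on a log axis, with bars for the 95% Poisson counting interval and an open triangle for the upper limit of the 0 counts of ALDH3A1 in vehicle. CYP1A1 goes from 1.53 to 44.9 and CYP1A2 from 0.479 to 17.9. The other members stay within 2-fold of their vehicle level, as NQO1 (19.7 to 34.7) and AHR (0.665 to 0.434), or lie near the bottom of the axis.

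The receptor and its partner were both lower in (R)-9b. AHR (ENSG00000106546, chr7:16916359-17346152, GRCh38) had 358 counts in vehicle and 198 in (R)-9b, a log2 ratio of -0.62 (95% interval -0.87 to -0.36). ARNT (ENSG00000143437, chr1:150809705-150876768), the dimer partner of AHR and of the HIF proteins, had 5122 and 3185 counts, a log2 ratio of -0.45 (interval -0.51 to -0.38). Neither interval reached 2-fold. Per length, ARNT stood at 11.8 scaled CPM per kb of exon in vehicle and 8.66 in (R)-9b, far above AHR at 0.665 and 0.434. The AHR level is a low estimate, since 2373 of its exon bases (29.4%) also belong to the gene model AC019117.2, which had 0 counts in both libraries, and reads over shared exons are ambiguous in a unique count. The deposited transcript estimates summed for AHR to 408 in vehicle and 178 in (R)-9b, a log2 ratio of -0.95 (interval -1.21 to -0.69).

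The chaperone genes of the cytoplasmic AHR complex described here stayed within 2-fold. HSP90AA1 and HSP90AB1, the cytosolic HSP90 genes, had 85633 and 111288 counts in vehicle and 67101 and 87246 in (R)-9b, both with a log2 ratio of -0.11. PTGES3, the p23 co-chaperone, had 17214 and 14682 counts, a log2 ratio of 0.01. Among 13 tested bHLH-PAS relatives the median was -0.06. A ratio above 1 was called for 5 of them and below 1 for 7 (29.8% and 31.1% of all tested genes). ARNTL, the clock factor also called BMAL1, was the only one called beyond 2-fold, at 1797 and 615 counts (log2 ratio -1.31). ARNT2, a relative that can also pair with AHR, had 382 and 420 counts (0.37), and HIF1A, a hypoxia factor that shares ARNT, had 8025 and 7536 (0.15). EPAS1 had the largest log2 ratio of the 13, at 166 and 332 counts (1.24, interval 0.96 to 1.52).

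The feedback repressors gave little signal. TIPARP (ENSG00000163659, chr3:156673235-156706770), an ADP-ribosyltransferase that modifies AHR and limits its activity, had 669 counts in vehicle and 564 in (R)-9b. After scaling for depth these were level, at 10.0 and 9.99 CPM (log2 ratio -0.01, interval -0.17 to 0.16). AHRR (ENSG00000063438, chr5:304176-438291), which competes with AHR for ARNT, had 4 counts in vehicle and 14 in (R)-9b. Its log2 ratio of 2.05 had an interval of 0.37 to 4.11, and with the counts halved, as if each read pair had been counted at both ends, it ran from -0.35 to 5.35 and included no difference. AHRR shares 244 exon bases (3.18%) with PDCD6 on the same strand, and PDCD6 had 77 and 292 counts.

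CYP1A1 and CYP1A2 stood apart from every other member. CYP1A1 (ENSG00000140465, chr15:74719542-74725610), which oxidises polycyclic aromatic hydrocarbons, had 350 counts in vehicle and 8718 in (R)-9b. Its ratio was 29.4, a log2 ratio of 4.88 (interval 4.72 to 5.03). CYP1A2 (ENSG00000140505, chr15:74748844-74756202), which oxidises aromatic amines and caffeine, had 87 and 2762 counts, a ratio of 37.4 and a log2 ratio of 5.23 (interval 4.92 to 5.55). The intervals of both log2 ratios overlap. Among 12380 protein-coding genes with at least 100 counts, 7 had a larger log2 ratio than CYP1A1 and 5 a larger one than CYP1A2.

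CYP1B1 (ENSG00000138061, chr2:38066973-38109902), the third CYP1 enzyme and a metaboliser of oestrogens, had 590 counts in vehicle and 603 in (R)-9b. Its log2 ratio was 0.27 (interval 0.10 to 0.44), so the CYP1 genes did not move as one. CYP1B1 shares 678 exon bases (11.3%) with CYP1B1-AS1 on the opposite strand, which had 81 and 115 counts, and the strand setting of the counting is not stated.

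NQO1 (ENSG00000181019, chr16:69706996-69726951), a quinone reductase driven by both AHR and NRF2, had 4268 counts in vehicle and 6368 in (R)-9b. Its log2 ratio was 0.82 (interval 0.76 to 0.87), above a ratio of 1 but short of 2-fold. ALDH3A1 (ENSG00000108602, chr17:19737984-19748943), an aldehyde dehydrogenase of barrier tissues, had 0 counts in vehicle and 9 in (R)-9b, under the minimum for a call. Set against a floor of 3 counts in the vehicle library, the ratio was 3.54. The exact interval of its log2 ratio began at 1.22, and with the counts halved at -0.11, which includes no difference.

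**Figure D2:**
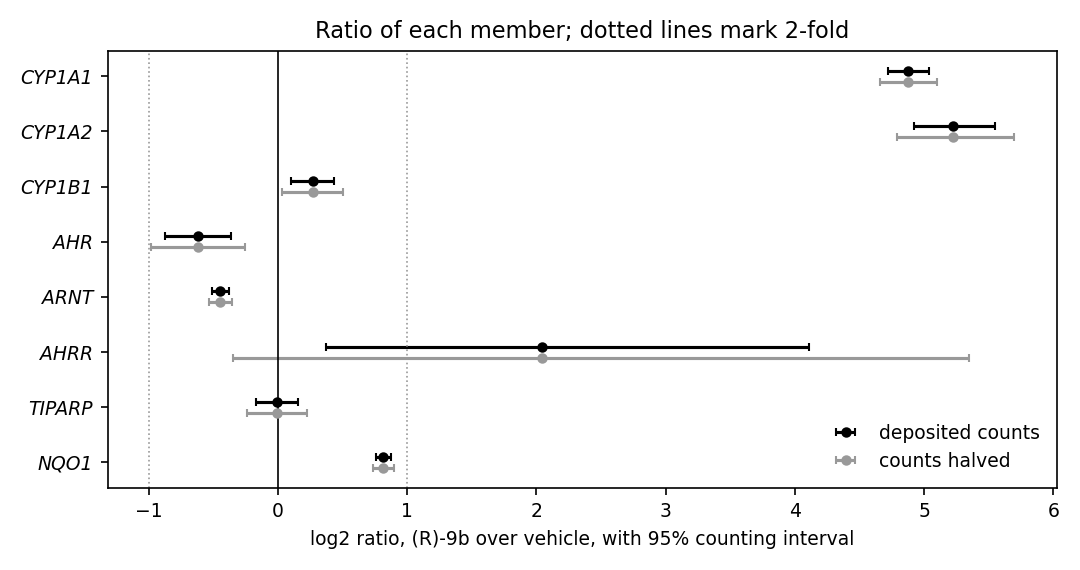
Log2 ratio of the 8 members with at least 10 counts, (R)-9b over vehicle, with 95% counting intervals from the deposited counts (black) and from the counts halved (grey), a solid line at 0 and dotted lines at 2-fold. CYP1A1 and CYP1A2 lie near 5, the interval of AHRR spans 0 once the counts are halved, and the other 5 members lie between the dotted lines.

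Levels were compared between members per kb of exon. In vehicle the order from the top was NQO1 at 19.7 scaled CPM per kb, ARNT, TIPARP at 1.99, CYP1A1 at 1.53, CYP1B1 at 1.47, AHR, CYP1A2, AHRR and ALDH3A1. The counting intervals of CYP1A1 (1.37 to 1.70) and CYP1B1 (1.36 to 1.60) overlapped there. In (R)-9b CYP1A1 came first at 44.9 (interval 44.0 to 45.9), then NQO1 at 34.7 (33.8 to 35.5), CYP1A2 at 17.9 and ARNT at 8.66. TIPARP at 1.98 (1.82 to 2.15) and CYP1B1 at 1.78 (1.64 to 1.92) overlapped, and so did AHRR and ALDH3A1 at the bottom. With 1 library per condition, whether these orders hold beyond the spread between cultures was not tested.

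The coding sequences of CYP1A1 and CYP1A2 were compared, since both genes arose by duplication and a read in an identical stretch cannot be placed. In GENCODE 29, the transcripts ENST00000379727 of CYP1A1 and ENST00000343932 of CYP1A2 were identical at 1233 of 1530 aligned coding bases (80.6%). Their longest identical run was 40 bases, in exon 2 of both genes, and is printed in capitals with 20 bases of lower-case flank on either side, 5′ to 3′ on the strand of each gene.
CYP1A1, chr15:74722776-74722855, minus strand: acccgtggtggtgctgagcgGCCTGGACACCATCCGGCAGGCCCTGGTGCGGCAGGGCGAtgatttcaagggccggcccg
CYP1A2, chr15:74749987-74750066, plus strand: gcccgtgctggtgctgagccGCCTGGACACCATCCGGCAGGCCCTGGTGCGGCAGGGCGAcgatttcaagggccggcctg
Of the 2655 windows of 31 bases in this CYP1A1 transcript, 28 (1.05%) were also in the CYP1A2 transcript, and 0 windows of 50, 75 or 150 bases were. The reads were 150 bases from each end. With ENST00000610745 of CYP1B1 it shared 0 windows of 31 bases.

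Most CYP1A counts were of CYP1A1 in both libraries, with a somewhat lower share in (R)-9b. Its share was 80.1% in vehicle (exact 95% binomial interval 76.0 to 83.7) and 75.9% in (R)-9b (75.1 to 76.7). That is 4.02 counts of CYP1A1 for each of CYP1A2 in vehicle and 3.16 in (R)-9b. The intervals of the shares overlap, which does not test their difference. The deposited transcript estimates gave 81.4% (74.5 to 87.1) and 74.8% (73.4 to 76.1).

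In that transcript table CYP1A2 was carried by ENST00000343932, with an estimate of 30.0 in vehicle and 1073 in (R)-9b. Of 10 CYP1A1 transcripts, 4 had an estimate above 0 in vehicle and 9 in (R)-9b. ENST00000379727 led in both, at 107 and 1854, which was 81.7% and 58.3% of the gene, although 97.2% of its windows of 31 bases are also in another CYP1A1 transcript. ENST00000395048 went from 0 to 729, and each of its windows is shared in this way, so both estimates rest on how shared reads were divided. The sums over CYP1A1 were 131 and 3177.

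**Figure D3:**
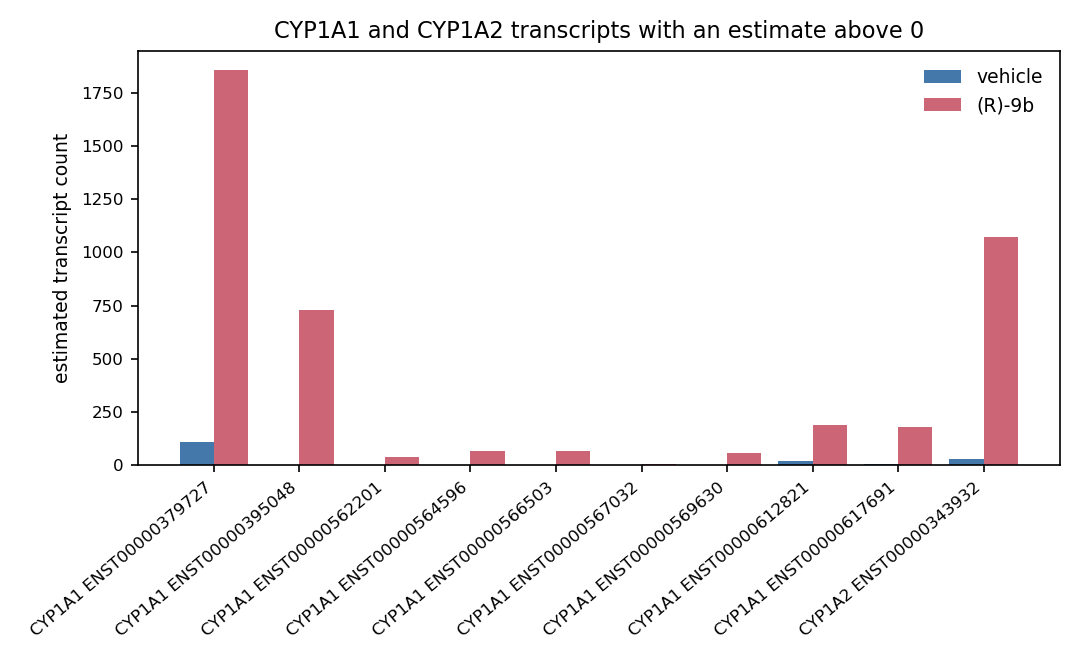
Estimated counts of the CYP1A1 and CYP1A2 transcripts with an estimate above 0, in vehicle and (R)-9b, with 1 library each and no error bars. ENST00000379727 of CYP1A1 (107 and 1854) and ENST00000343932 of CYP1A2 (30.0 and 1073) are the tallest pairs, and ENST00000395048 has an estimate in (R)-9b only.

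For the other members the transcript estimates differed from the gene counts in what they covered. ARNT summed to 898 in vehicle and 568 in (R)-9b (log2 ratio -0.41), NQO1 to 1190 and 1777 (0.83) and CYP1B1 to 309 and 343. TIPARP summed to 0 and 42.2, all on ENST00000481853, although its gene count was 669 and 564. A principal GENCODE transcript of each of ARNT, TIPARP, AHRR, NQO1 and ALDH3A1 was not analysed here, so these sums cover part of each gene. The ARNT estimates came to 0.175 of its gene count in vehicle and 0.178 in (R)-9b, against a median over genes of 0.362 and 0.361. AHRR had 6.47 on ENST00000506456 in vehicle and 3.88 on the retained-intron transcript ENST00000507048 in (R)-9b, the opposite order to its gene counts.

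Around CYP1A1 no abundant gene differed as much as the CYP1A pair. Of 7 tested genes other than CYP1A2 with a start within 150 kb, 2 had a log2 ratio over 1. Both were called higher, as were 4.2% of all tested genes, and both had low counts. EDC3, an mRNA decapping factor whose start is at -29.3 kb, had 3055 counts in vehicle and 4326 in (R)-9b (log2 ratio 0.74). CSK, the kinase that restrains SRC, lies at 56.4 kb, beyond CYP1A2, and had 9023 and 9958 (0.38). ULK3 had 0.54, CLK3 -0.08 and SCAMP2 -0.03, all far below the CYP1A pair. The intervals of EDC3 (0.67 to 0.81), ULK3 (0.47 to 0.60) and CSK (0.34 to 0.42) lay above 0 (29.8% of all tested genes). That of CLK3 (-0.13 to -0.03) lay below 0 (31.1% of all), and that of SCAMP2 (-0.07 to 0.02) included it. LMAN1L, 87.1 kb away, had 4 counts in vehicle and 33 in (R)-9b (3.28, interval 1.79 to 5.24). AC091230.1, whose span overlaps that of LMAN1L on the same strand, had 3 and 18 (2.82, interval 1.05 to 5.23). With the counts halved, the intervals began at 1.20 for LMAN1L and 0.33 for AC091230.1. CPLX3 had 0 counts in both libraries, and ARID3B, just outside this distance, had 375 and 309 (-0.04).

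**Figure D4:**
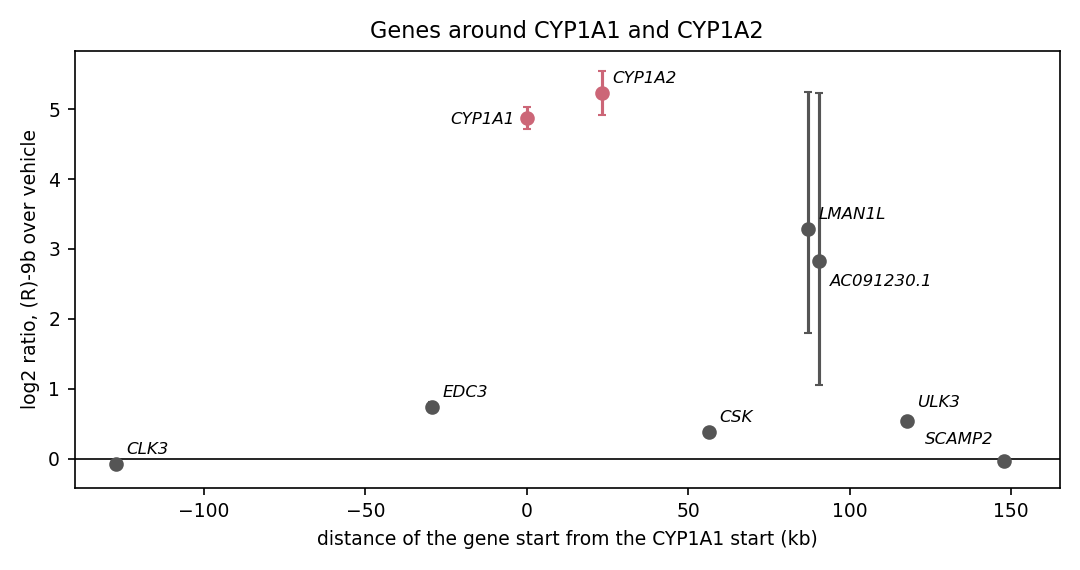
Log2 ratio, (R)-9b over vehicle, of each tested gene against the distance of its start from the CYP1A1 start in kb, with 95% counting intervals and the members in red. CYP1A1 and CYP1A2 lie near 5, LMAN1L and AC091230.1 have wide intervals, and the 5 remaining genes lie between -0.08 and 0.74.

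Set among all 56 protein-coding cytochrome P450 genes of the table, CYP1A1 moved from rank 11 per kb of exon in vehicle to rank 1 in (R)-9b, and CYP1A2 from rank 17 to rank 2. Together they made up 3.45% of the summed P450 level per kb in vehicle and 49.1% in (R)-9b. Without them, the summed P450 level was 56.2 scaled CPM per kb in vehicle and 65.1 in (R)-9b. Of 34 tested P450 genes 6 were called higher and 0 lower (4.2% and 3.44% of all tested genes), with a median log2 ratio of 0.56. Beside the CYP1A pair these included CYP4F22 (60 and 252 counts, 2.31), CYP4F8, which hydroxylates prostaglandins (1863 and 4266, 1.43), and CYP4F12 (167 and 365, 1.37). Without the 3 CYP1 members, 4 of 31 were called higher. Of the 31, 19 were above a ratio of 1 and 5 below it (29.8% and 31.1% of all). CYP4F genes are close paralogs, and how their shared reads were assigned was not tested.

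**Figure D5:**
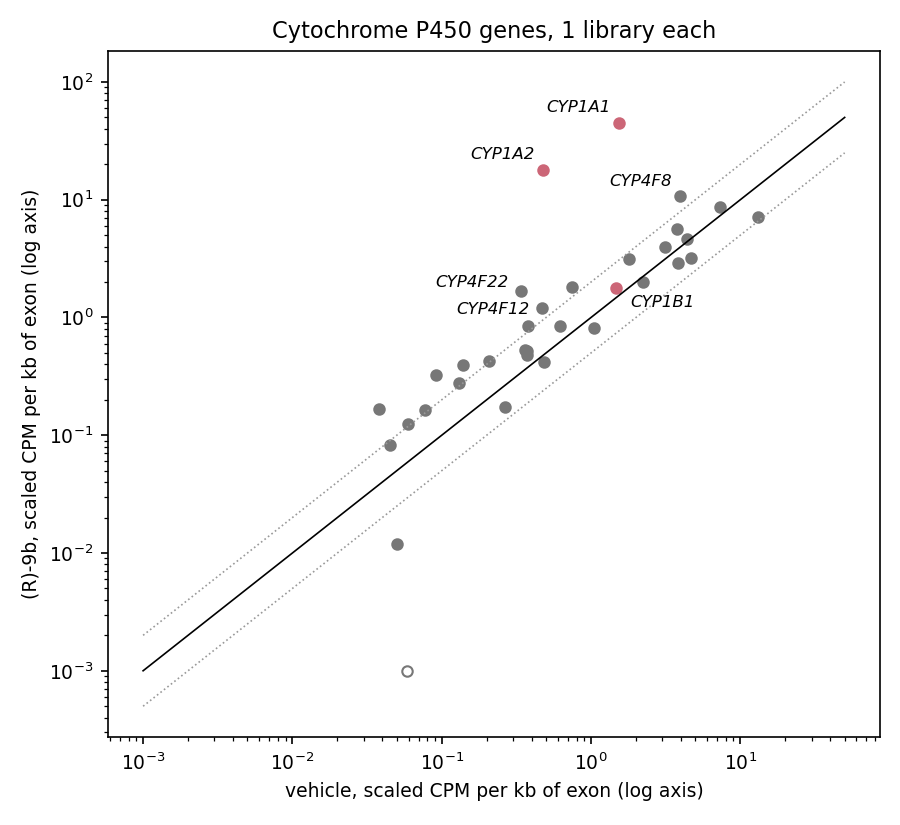
Level of each tested P450 gene in vehicle (x) and (R)-9b (y), as scaled CPM per kb of exon on log axes, with a solid line at equal levels, dotted lines at 2-fold and the members in red. CYP1A1 and CYP1A2 lie well above the upper dotted line, CYP1B1 lies close to the solid line, and the open circle is CYP4X1, which had 10 counts in vehicle and 0 in (R)-9b and is placed near the lower edge.

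Other genes reported as AHR targets did not move together. Of the 18 genes listed, 10 were tested, with a median log2 ratio of -0.48. Among the 10, 1 was called higher and 2 lower (4.2% and 3.44% of all tested genes). GSTA2, a glutathione transferase, had 199 and 557 counts (1.72, interval 1.49 to 1.96), and GSTA1, its close paralog, had 578 and 941 (0.94), so reads of this pair may have been divided between them. XDH, xanthine dehydrogenase, had 362 counts in vehicle and 12 in (R)-9b (-4.68, interval -5.64 to -3.85). CDKN1B, the cell-cycle inhibitor p27, had 5034 and 1617 (-1.40). UGT1A1 and UGT1A6, conjugating enzymes with shared exons, had 0 counts in both libraries.

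NQO1 was set beside 17 genes of the NRF2 axis, all tested. Of these 0 were called higher and 2 lower (4.2% and 3.44% of all tested genes), and the median was -0.27. Among the 17, 3 were above a ratio of 1 and 11 below it (29.8% and 31.1% of all). HMOX1, haem oxygenase, had 7897 counts in vehicle and 2110 in (R)-9b, and SLC7A11, the cystine transporter, had 11132 and 2966, each with a log2 ratio of -1.67. The log2 ratio of NQO1, 0.82, was larger than that of each of the 17. Its paralog NQO2 had 3646 and 2727 counts (-0.18).

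Genes that make AHR ligands from tryptophan were mostly at low counts. Of the 12 genes listed, 8 were tested, with a median of 0.64. Among the 8, 2 were above a ratio of 1 and 2 below it (29.8% and 31.1% of all tested genes). IDO1, which starts the kynurenine route, had 0 counts in both libraries, and TDO2, the liver enzyme for the same step, had 2 and 8. AADAT, which makes kynurenic acid, had 3922 and 5633 (0.76). IL4I1, an amino acid oxidase that yields indole ligands, had 172 and 86 (-0.76).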

How the data were processed

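RNA was poly-A selected and sequenced as paired 150-base reads. The authors deposited unnormalized gene counts of uniquely aligned unambiguous reads, the same values as CPM and as moderated log2 CPM, and estimated counts per transcript. Their processing notes name hg38, STAR 2.5.1a, featureCounts 1.4.6-p5 and Salmon 0.8.2; the paper names another STAR version, and the strand setting is not given in the sources used here. From 1 to 20 counts, 72.2% of vehicle and 70.3% of (R)-9b values were even, so both ends of a pair may have been counted.

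The 9 members and all gene lists were chosen with earlier results of these data known. Genes named are all members, chaperone genes of the receptor complex, the genes of the CYP1A region, and, per list, up to 4 in each direction whose interval lay beyond 2-fold; others were named after their values were seen, and a few genes of the lists are left unreported. After 200 repeated lines were dropped, counts were scaled by TMM (edgeR 4.0.16, R 4.3.3), and the transcript estimates by a TMM of their own. Exact Clopper-Pearson 95% intervals of the ratio were computed for each gene (Python 3.11.15, scipy 1.17.1, numpy 2.4.6, pandas 2.3.3). Calls and medians used genes with 10 or more counts in the pair of libraries. The interval code was tested on simulated data. At 65207444 and 57653965 counts, 3 counts correspond to 0.0451 and 0.0531 scaled CPM. Exon lengths and transcripts are from GENCODE 29 (GRCh38), another release than the authors used, and promoters from RefSeq. Alternatives were other scalings (library totals, upper quartile, DESeq2 1.42.0 size factors, TMM without mitochondrial genes), other minimum counts, halved counts and the other deposited tables. Figures were drawn with matplotlib 3.10.9. No column of fold changes was used.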

Additional observations from a re-analysis of the deposited data

How the results depend on the processing

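CYP1A1 and CYP1A2 kept a log2 ratio of 4.81 to 4.91 and 5.16 to 5.26 over the other scalings, the deposited CPM and log2 CPM and the halved counts, and no member turned direction there except TIPARP, which ran from -0.07 to 0.03. The estimated transcript counts reversed AHRR (log2 ratio -0.49) and moved the share of CYP1A1 among CYP1A counts in (R)-9b to 74.8%. They also moved AHR to -0.95, and TIPARP to 4.06 against the floor of 3 counts. NQO1 was 0.75 with scaling by library totals, with the deposited CPM and with the moderated log2 CPM. With a minimum of 1 count ALDH3A1 entered, and 3 members were then called higher in place of 2 and 6 were above a ratio of 1 in place of 5. With halved counts or a minimum of 50 counts, 4 were above it, and with estimated transcript counts 3 were called higher. No paired analysis was possible because each condition had 1 library. For the same reason, a difference between the libraries and an effect of (R)-9b cannot be told apart.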

Other observations

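Other P450-related lists gave smaller differences than the CYP1A pair. The 11 genes that supply P450 enzymes with electrons or haem had a median log2 ratio of 0.08, with 0 called beyond 2-fold. POR, the reductase that feeds microsomal P450 enzymes, had 8128 counts in vehicle and 7854 in (R)-9b (0.19), ALAS1, which starts haem synthesis, had 7927 and 6787 (0.01), and ALAD, the next enzyme, had 2844 and 4126 (0.77). On the PXR and CAR axis, the other main route to P450 induction, 6 of 12 genes were tested, with a median of 0.71. NR1I2, which encodes PXR, had 0 and 2 counts, and CYP3A4, its best-known target, had 4 and 0.

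The protein-coding genes with at least 100 counts whose log2 ratio lay nearest to that of CYP1A1 were TXNIP (147 and 3188 counts, 4.68), B3GALT5 (96 and 2986, 5.20), CYP1A2, SHANK1 (9 and 171, 4.49) and HLA-DRA (4 and 132, 5.28). The likeness is in 1 ratio between 2 libraries. Among 11 paralogs of members outside the CYP1 family, PARP10, a relative of TIPARP, was the only one called beyond 2-fold, at 6330 and 11179 counts (1.06).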
